A study of Drosophila melanogaster with 2 samples.

Results

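Pairs of loci on the left arms of chromosomes 2 and 3 formed off-diagonal peaks in haplotype-resolved Hi-C maps of early *Drosophila melanogaster* embryos. The members described here are the 2 kb bins of 6 anchors of 200 kb each, on both homologs, which gives 1200 bins of the 119034 bins on the 5 large arms. The 3 anchor pairs were set by position (build dm3) because strong contacts had been seen between them in these same maps. Pair A joins chr2L:800001-1000000 to chr2L:2480001-2680000, pair B joins chr2L:6250001-6450000 to chr2L:9370001-9570000, and pair C joins chr3L:6550001-6750000 to chr3L:9200001-9400000. Their anchors lie 1.68, 3.12 and 2.65 Mb apart. The elevated cis and trans-homolog contacts between partners are therefore what chose the members, and are given as a description without a test.

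All libraries came from whole F1 hybrid embryos aged 2-4 h, from mothers of the inbred line DGRP-057 and fathers of the inbred line DGRP-439. The 2 biological replicates were made from pooled embryos of mixed cell types, so a contact frequency is an average over all nuclei, and no second genotype or stage was compared. Chromatin was cut with DpnII and ligated, and read ends were assigned to the maternal (057) or paternal (439) homolog through sequence variants. The read files named in the headers carry the name of a hybrid cell line of the same 2 lines, while the genome they were aligned to is named for the embryos. The labels were followed, and the origin of the libraries was not tested. No RNA or other readout was used, so there were no cell-type markers against which to set the label.

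In Hi-C, loci that are close in the nucleus are ligated and sequenced as a pair. A pair is called cis when both ends come from the same homolog, trans-homolog when the ends come from the 2 homologs of a chromosome, and trans-heterolog when they come from different chromosomes. Homologs of *Drosophila* pair along their length in somatic cells, a process that is established during early embryogenesis. In such nuclei, 2 distant loci that meet in cis may also meet across homologs, which is why both classes were read at the same anchors. Local chromatin is partitioned into domains separated by boundaries, positions over which few contacts cross.

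The deposited files held 24390496 pairs in replicate 1 and 24659056 in replicate 2. After removal of contacts shorter than 3 kb, 5264395 and 6082272 pairs remained in the maps, of which 407670 and 439963 were trans-homolog and 4070660 and 4676267 were cis. Of the 1200 anchor bins, 1048 passed the coverage filter. The downstream anchor of pair A was the thinnest, with 73 maternal and 72 paternal bins of 100 visible and a median of 102 pairs per bin on either homolog, against 198 and 191 on the arm. The downstream anchor of pair C was the deepest, with medians of 358 maternal and 343 paternal pairs per bin. Homolog misassignment, read from inward-facing pairs at 300 to 600 bp, was 0.236% and 0.238% on chromosomes 2 and 3, and lay between 0.0926% and 0.285% within the anchors.

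Enrichment is given as observed pairs over the pairs expected from the coverage bias of each bin and the mean contact frequency of that class, arm and separation. A value of 1 is the arm average. Brackets after single or pooled counts are exact 95% Poisson intervals, which cover counting error only. Values written with ± are means and SD over the 2 replicates.

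Between the partners of pair A, 66 and 49 trans-homolog pairs were counted in replicates 1 and 2, together with 248 and 236 cis pairs. These were 6.43 and 4.18 times the expected number in trans, and 3.92 and 3.19 times in cis. The enrichment averaged 5.30 ± 1.59 for trans-homolog contacts and 3.56 ± 0.51 for cis contacts (SD, n = 2). Its trans-homolog contacts thus differed more between replicates than its cis contacts did.

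Pair B, the most widely spaced, yielded 74 and 80 trans-homolog pairs and 196 and 219 cis pairs. Its enrichment was 4.91 ± 0.24 in trans and 3.34 ± 0.24 in cis (SD, n = 2). The replicates of pair B lay close together in both classes.

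Pair C had the most pairs, with 85 and 91 in trans and 402 and 447 in cis. Its trans-homolog enrichment was 5.15 ± 0.11 and its cis enrichment 4.82 ± 0.25 (SD, n = 2). The ratio of trans to cis enrichment was 1.07 ± 0.03 at pair C, 1.47 ± 0.03 at pair B and 1.47 ± 0.24 at pair A. Trans-homolog enrichment was the higher of the 2 in both replicates at each anchor pair. With replicates pooled, the trans and cis intervals did not overlap at pair A (4.32 to 6.27 and 3.22 to 3.86) or pair B (4.16 to 5.74 and 3.01 to 3.66), and did overlap at pair C (4.42 to 5.97 and 4.49 to 5.14). In replicate 2 alone, they overlapped at pair A (3.09 to 5.52 and 2.80 to 3.63). In replicate 1 alone, they overlapped at pair B (3.99 to 6.37 and 3.03 to 4.03). At pair B, the pooled interval of paternal cis contacts alone (3.83 to 4.87) overlapped that of trans contacts.

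Misassigned cis pairs amounted to little of the trans-homolog signal. At the rate of 0.236% to 0.238%, the expected number of misassigned pairs in an anchor square was between 0.463 and 1.06 per replicate, against 49 to 91 trans-homolog pairs counted. With the highest rate found in either anchor of a pair it was at most 1.02.

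The trans-homolog pairs fell on both arrangements, maternal upstream with paternal downstream and the reverse. Pooled over replicates, pair A had 65 pairs with the maternal end upstream (5.81-fold, 4.48 to 7.40) and 50 with the paternal end upstream (4.63-fold, 3.43 to 6.10). Pair B had 83 (5.38-fold, 4.28 to 6.67) and 71 (4.44-fold, 3.47 to 5.60), and pair C had 92 (5.18-fold, 4.18 to 6.36) and 84 (5.12-fold, 4.08 to 6.34). The intervals of the 2 arrangements overlapped at each anchor pair. Read orientations were also mixed. The 849 cis pairs of pair C, counted with 2 more in masked bins, split into 216 inward, 223 outward, 202 plus-plus and 210 minus-minus pairs.

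**Figure D1:**
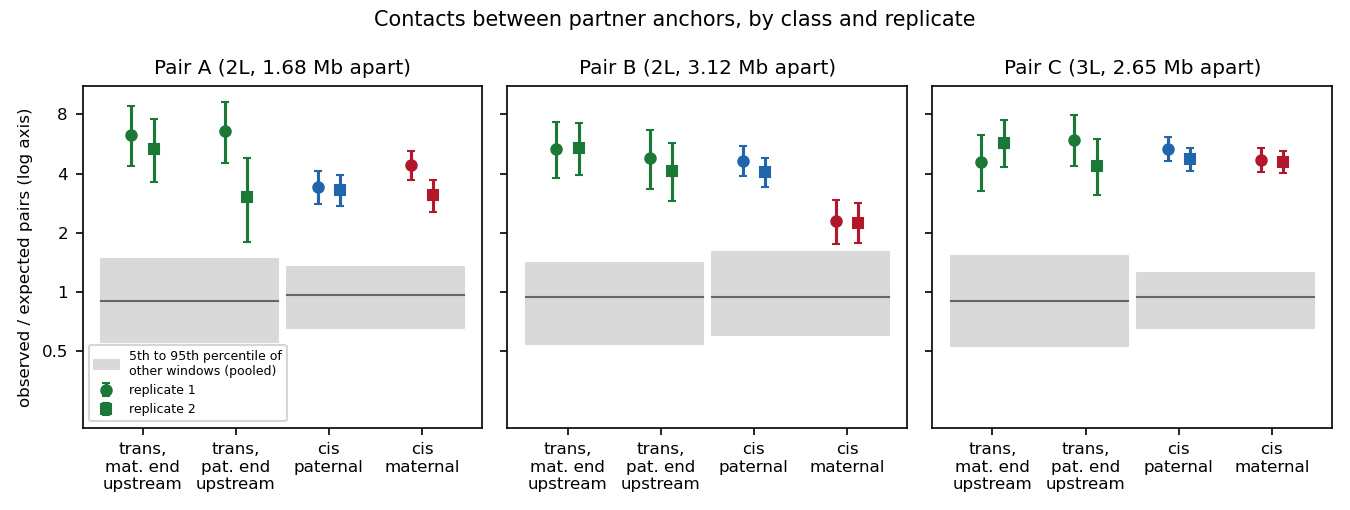
Observed over expected pairs (log axis) between the 200 kb partner anchors, for each class of contact in replicate 1 (circles) and replicate 2 (squares), with exact 95% Poisson intervals; grey bands span the 5th to 95th percentile and grey lines the median of other window pairs of the same arm and separation. All class values lie above the bands, and cis maternal contacts of pair B, at 2.29 and 2.25, lie lowest.

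The anchors were then set against the other window pairs of the same size, arm and separation, stepped by 10 kb and with at least 70% of their bins visible. Windows shifted by less than 200 kb overlap the anchors and were left out, so the rank does not cover them. The windows kept overlap each other and are not independent, so the rank is a description. None of them reached the anchors of pair A (1895 windows), pair B (1776 windows) or pair C (1766 windows), in trans or in cis. This held with the replicates pooled or taken separately. In trans, the anchors had 5.23, 4.90 and 5.15 with replicates pooled, and the window medians were 0.902, 0.939 and 0.904. In cis, the anchors had 3.53, 3.32 and 4.81, and the window medians were 0.962, 0.937 and 0.939.

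The distance to the highest other window varied. For pair C the highest values elsewhere on 3L were 2.41 in trans and 1.66 in cis. For pair B the highest cis window reached 2.98, close to the 3.32 of the anchors, and lay 8.53 Mb further along the arm, while the highest trans window had 2.02. For pair A the highest cis window had 1.83, and the highest trans window had 4.34 and lay 19.2 Mb further along 2L, towards the centromere. In replicate 1 alone, pair A had 6.43 in trans and the highest other window 5.70.

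**Figure D2:**
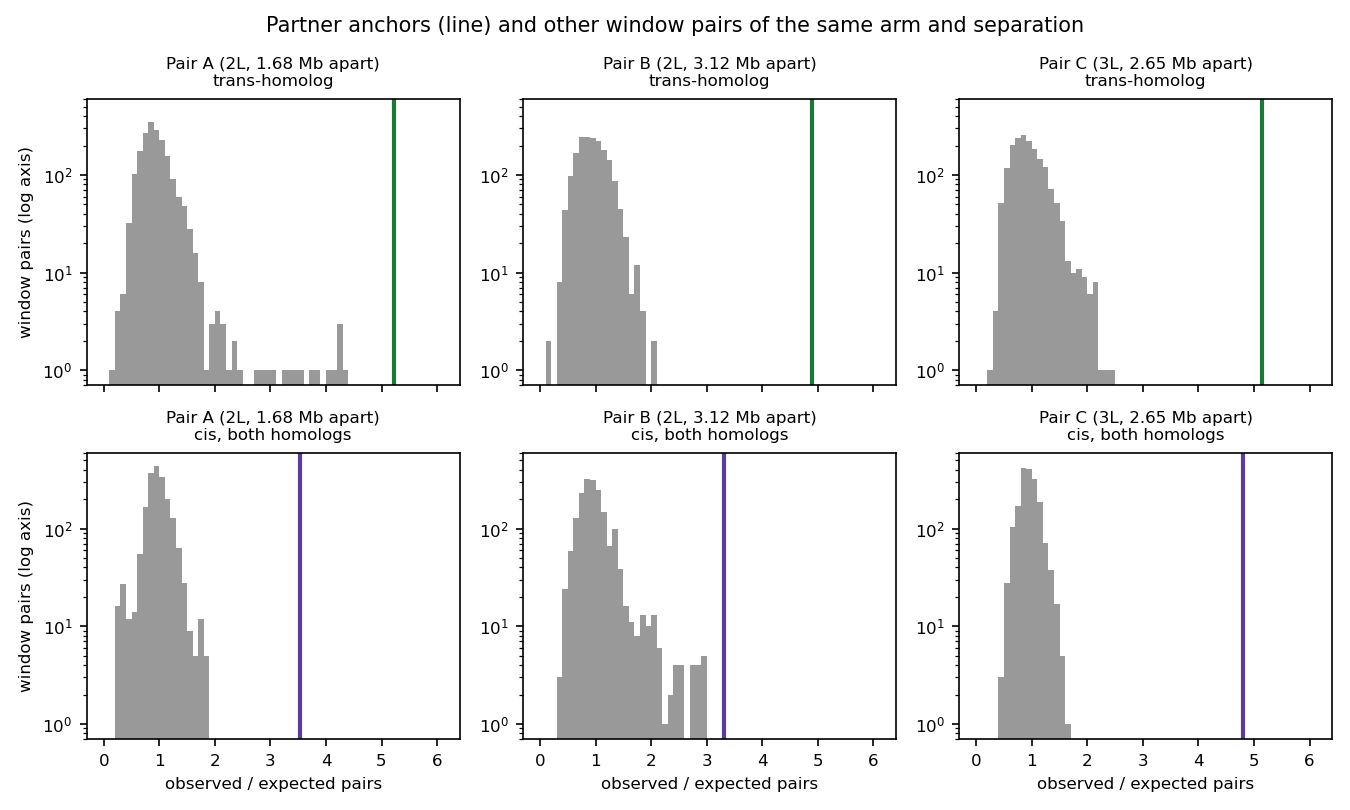
Number of window pairs (log axis) by observed over expected pairs for 200 kb window pairs of the same arm and separation. Trans-homolog contacts are above and cis below, with the anchor pair as a vertical line (both replicates pooled). Windows shifted by less than 200 kb from the anchors are left out. The lines stand right of all windows shown, with the smallest gap for cis contacts of pair B, where the highest other window had 2.98.

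The share of trans-homolog pairs among all pairs of an anchor square was 19.2% for pair A, 27.1% for pair B and 17.2% for pair C. The medians of the other windows were 13.1%, 19.7% and 15.9%. Of the other windows, 130 of 1895, 161 of 1776 and 641 of 1766 had a share at least as high. The trans-homolog share of pair C was therefore well within the range of its arm, and those of pairs A and B were in the upper part.

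At a finer scale, each anchor square holds 25 pixels of 40 kb. Pixels at 3 times the expectation or more numbered 15 in trans and 11 in cis for pair A, where 5.46% and 0.688% of all pixels at that range of separations on 2L passed. For pair B, 12 pixels in trans and 7 in cis passed, with backgrounds of 5.97% and 1.38%. For pair C, 18 in trans and 16 in cis passed, with backgrounds of 6.56% and 1.08% on 3L. Because the anchors were chosen for this signal, these counts describe the width of the peaks and nothing more.

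The centre of each peak was placed at the 10 kb square with the highest cis enrichment in the pooled map. For pair B it fell at chr2L:6356001-6366000 with chr2L:9466001-9476000, with 24 cis pairs (59.0-fold) and 4 trans-homolog pairs. For pair C it fell at chr3L:6640001-6650000 with chr3L:9326001-9336000, with 12 cis pairs (25.3-fold) and 1 trans-homolog pair. For pair A it fell at chr2L:930001-940000 with chr2L:2628001-2638000, with 8 cis pairs (28.0-fold) and no trans-homolog pair.

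A maximum over many small squares is high by construction. The same search in the other windows gave a median of 8.18 for the separation of pair A and reached or passed 28.0 in 8 of 1895 windows. It reached 25.3 in 26 of 1766 windows for pair C and 59.0 in 0 of 1776 windows for pair B. When the centre was chosen in 1 replicate and read in the other, the median cis enrichment over the 3 pairs was 10.2 in place of 27.6. When it was chosen on 1 homolog and read on the other, it was 7.14. Centres chosen in replicate 1 and in replicate 2 lay 20 kb apart upstream and 10 kb apart downstream for pair A, 0 and 22 kb apart for pair B, and 2 and 34 kb apart for pair C.

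Squares of 40 kb around the same centres held enough pairs to compare classes. At pair B, 11 and 19 trans-homolog pairs and 51 and 57 cis pairs were counted, an enrichment of 26.4 ± 6.11 in trans and 23.2 ± 1.90 in cis (SD, n = 2). At pair C, 12 and 11 trans-homolog pairs and 57 and 56 cis pairs gave 14.7 ± 1.34 in trans and 14.5 ± 2.00 in cis. At pair A, 10 and 6 trans-homolog pairs and 30 and 34 cis pairs gave 12.2 ± 5.55 in trans and 7.79 ± 0.23 in cis. At this scale trans and cis enrichment differed by less than the spread between replicates at pairs A, B and C, with 6 to 19 trans-homolog pairs per replicate behind each value.

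The anchor pairs differed in how steeply contacts fell off. Around the centre of pair B, trans-homolog enrichment was 27.5 at 6 to 14 kb, 8.67 at 26 to 34 kb and 2.19 at 76 to 98 kb. Cis paternal enrichment was 29.1, 6.89 and 1.66 at the same distances. Around the centre of pair A the decline was slower, with 15.1, 9.33 and 3.32 in trans and 6.01, 7.55 and 2.56 in cis paternal contacts. Pair C had 15.0, 10.4 and 2.95 in trans and 11.7, 6.16 and 3.19 in cis paternal contacts. Cis maternal enrichment was 10.1, 7.29 and 3.07 at pair A, 8.27, 1.98 and 1.73 at pair B, and 15.5, 6.50 and 2.88 at pair C. In trans-homolog and cis paternal contacts, pair B was thus the more focal peak, and pairs A and C were broader blocks. At 150 to 200 kb, trans-homolog enrichment was nevertheless 1.62 at pair B, against 1.47 at pair A and 1.21 at pair C. These slopes depend on centres placed at the maximum of the same cis pairs.

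**Figure D3:**
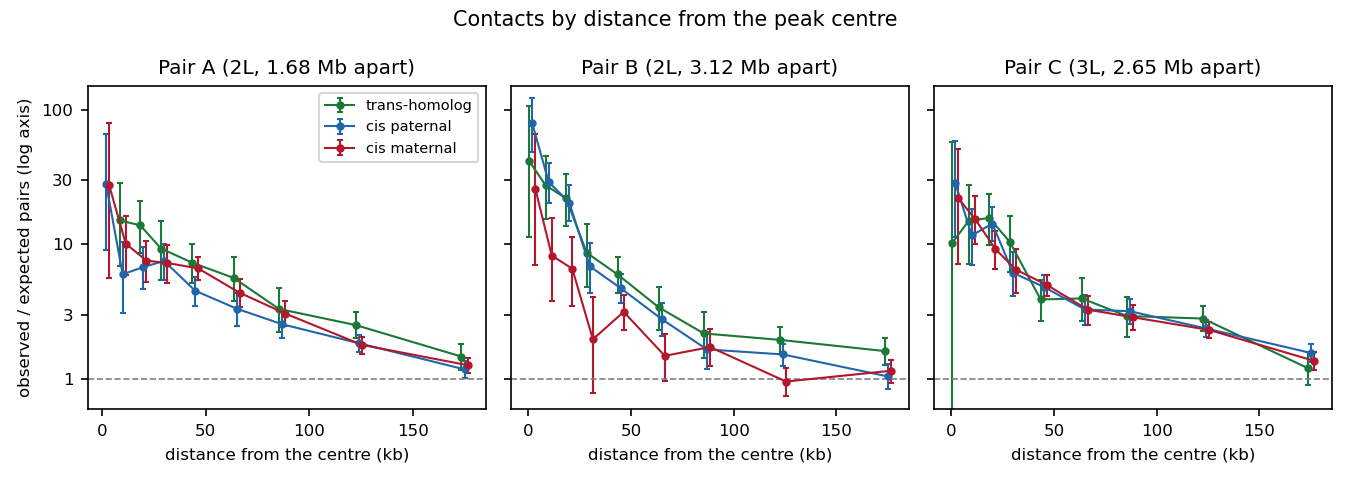
Observed over expected pairs (log axis) in square rings of growing distance from the peak centre, with replicates pooled and exact 95% Poisson intervals; rings with 0 pairs are left out, and the dashed line is the arm average. At 6 to 14 kb pair B stands at 27.5 in trans-homolog and 29.1 in cis paternal maps but at 8.27 in the cis maternal map, around a centre chosen on cis pairs that were mostly paternal.

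Paternal and maternal cis maps differed at pair B. The anchor square held 134 and 142 paternal cis pairs in replicates 1 and 2, against 62 and 77 maternal ones. Enrichment was 4.36 ± 0.41 on the paternal homolog and 2.27 ± 0.03 on the maternal homolog (SD, n = 2), a ratio of 1.92 ± 0.16. The paternal share of the cis pairs was 66.5% (exact 95% binomial interval 61.7 to 71.0), where the expected pairs were 63.8 paternal and 61.2 maternal.

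The centre of pair B was chosen on the cis pairs of both homologs, of which 20 of 24 were paternal, so values around it favour the paternal homolog. In the 40 kb square, 42 paternal cis pairs were counted in each replicate, against 9 and 15 maternal ones. Pooled enrichment was 32.9 (26.3 to 40.8) on the paternal homolog and 11.2 (7.18 to 16.7) on the maternal homolog, and the paternal share was 77.8% (68.8 to 85.2). Around the centre chosen on maternal pairs alone, which lay 32 kb further along upstream, enrichment was 16.3 (11.5 to 22.4) on the paternal homolog and 7.04 (4.02 to 11.4) on the maternal homolog, a setting chosen after the data were seen. The ratio was 2.94 around the first centre and 2.31 around this one. The maternal contacts of pair B were still above the arm average, but 20 of 1776 other windows had a maternal cis enrichment as high as its 2.27, whereas 0 had a paternal one as high as 4.33.

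Pairs A and C did not show such a difference. At pair A, 107 and 121 paternal pairs stood against 141 and 115 maternal pairs, with a ratio of enrichments of 0.92 ± 0.20. At pair C, 203 and 211 paternal pairs stood against 199 and 236 maternal pairs, with a ratio of 1.09 ± 0.08. Among the other windows at the separation of pair B, 23 of 1776 had a paternal to maternal ratio as high as the pooled 1.91, and the windows ranged between 0.291 and 2.84. The ratio at pair B was 2.01 with pairs of mapping quality of at least 30 and 1.96 without correction of coverage, both chosen after the data were seen. Only 32.8% of its cis pairs had that quality. Parent of origin and line cannot be told apart in a single direction of the cross.

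Contacts within the anchors of pair B did not show the same split. At 3 to 100 kb, pooled cis enrichment of its upstream anchor was 1.07 (1.05 to 1.10) on the paternal homolog and 1.13 (1.10 to 1.15) on the maternal homolog. Its downstream anchor had 1.05 (1.02 to 1.08) and 1.05 (1.03 to 1.08).

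**Figure D4:**
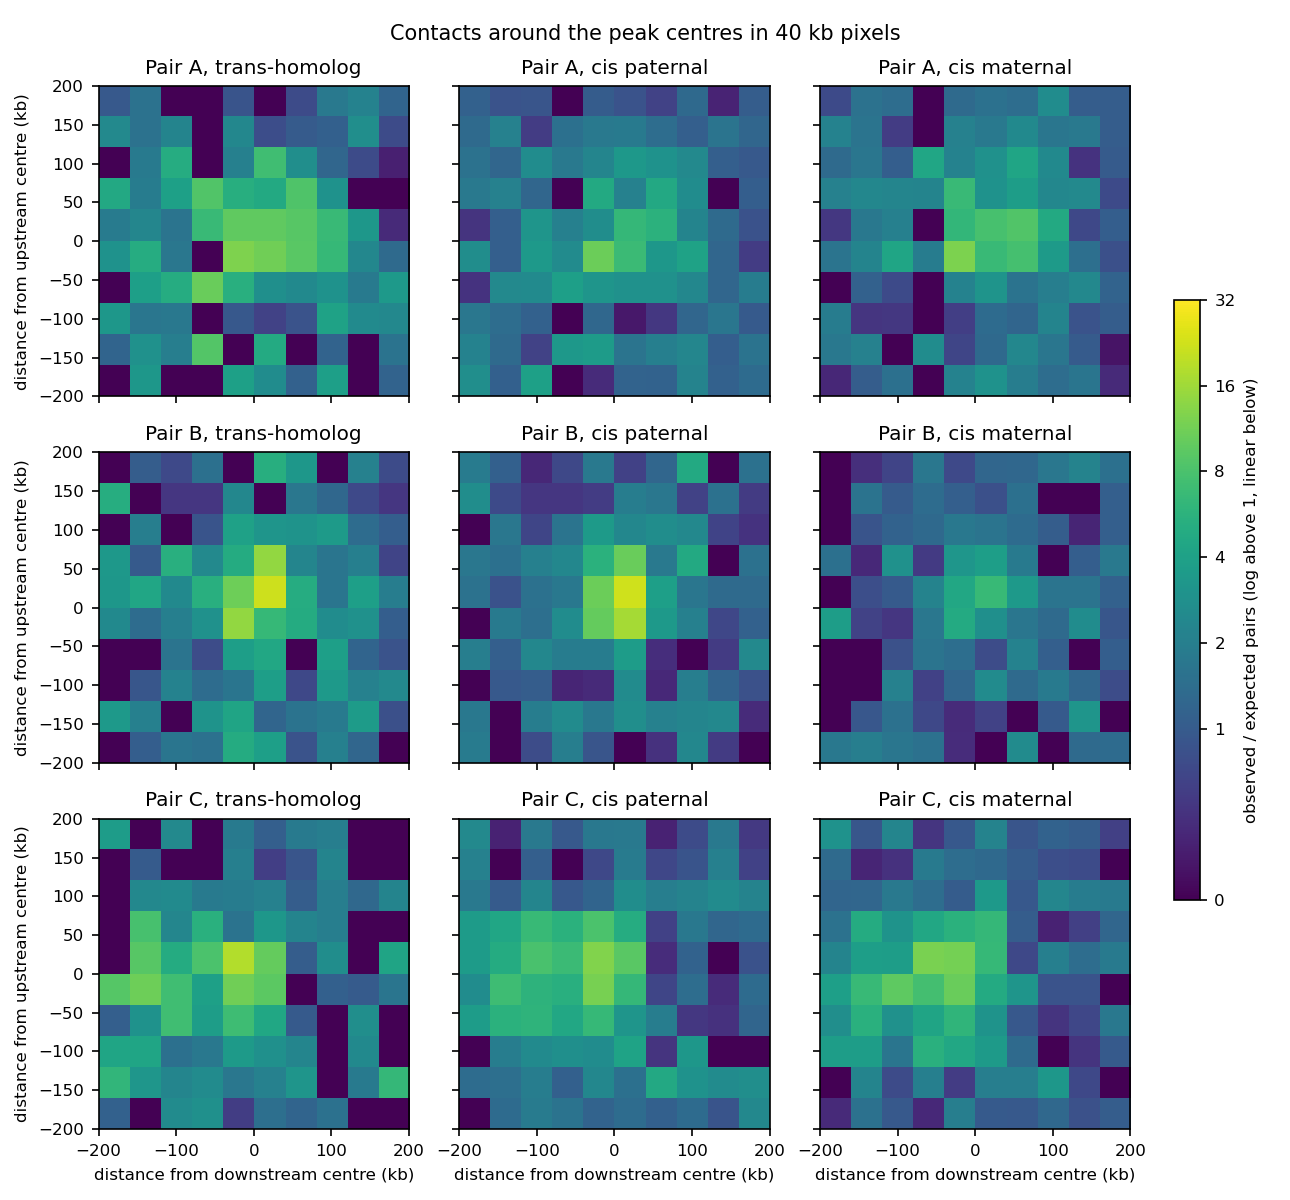
Observed over expected pairs (colour, logarithmic above 1) in 40 kb pixels by distance from the upstream and downstream centre, for trans-homolog, cis paternal and cis maternal maps (replicates pooled; single pixels hold few pairs). Pair B is brightest near its centre and is brighter in the paternal than in the maternal map, and pairs A and C are broader blocks.

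The contacts of each centre with the rest of its arm were then read. Because the anchors were set for their contact and the centres placed at its maximum, a high rank of the partner was largely fixed beforehand. Enrichment was computed for 20 kb windows beyond 500 kb with at least 0.5 expected cis pairs, of which 230 to 711 were kept per centre. The highest cis window lay in the partner anchor for all 6 centres. It had 12.2 and 10.6 for the upstream and downstream centres of pair A, 31.4 and 30.2 for those of pair B, and 24.1 and 15.2 for those of pair C. The medians over all windows were between 0.724 and 1.02.

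Of the 30 windows in these top 5 lists, 26 lay in the partner anchor. For the upstream centre of pair A, the exception was chr2L:2680001-2700000, which adjoins the partner anchor (18 cis pairs, 10.0-fold). The downstream centre of pair C contacted chr3L:12900001-12920000, 3.578 Mb away, with 9 cis pairs (8.35-fold) and 4 trans-homolog pairs (15.5-fold). The upstream centre of pair B had 3 cis pairs with chr2L:14180001-14200000 and 5 with chr2L:10000001-10020000. These last counts are small.

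Anchors that are not partners met at about the arm average. Among the 4 combinations of pair A with pair B anchors on 2L, trans-homolog enrichment lay between 0.705 and 1.27 and cis enrichment between 0.81 and 1.03, and the intervals all held 1. Between arms, 6 of the 8 combinations had intervals that held 1. The downstream anchors of pairs A and C met in 34 trans-heterolog pairs (2.13-fold, 1.47 to 2.97), and the upstream anchors of pairs A and C in 27 pairs (1.60-fold, 1.06 to 2.33).

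The local domains were read from insulation, the mean corrected contact frequency across each 4 kb bin within 40 kb on either side. A boundary is a minimum of log2 insulation with a prominence of at least 0.3. The anchors of pair A overlapped large domains. In the cis map, the upstream centre lay in a domain of 208 kb between boundaries at chr2L:868001-872000 and chr2L:1076001-1080000. The trans-homolog map had boundaries in the same 2 bins, and further ones between them. The downstream centre lay in a domain of 256 kb between chr2L:2492001-2496000 and chr2L:2748001-2752000, and trans-homolog boundaries lay 4 kb and 8 kb before these. Both domains run on beyond the anchors as set, and the upstream anchor begins before its domain. In replicate 1 alone, the boundary next before each centre of pair A was not the same, and the domains were called at 256 and 532 kb, against 208 and 244 kb in replicate 2. On single homologs, with replicates pooled, the upstream centre lay in a domain of 140 kb (maternal) or 212 kb (paternal). The downstream centre lay in one of 224 kb (maternal) or 120 kb (paternal). Some bins before the downstream centre had no insulation score.

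Contacts of pair A were higher between the 2 domains called in the cis map of both homologs than in the 40 kb on either side. Between the 2 domains, 182 trans-homolog pairs (5.14-fold, 4.42 to 5.95) and 825 cis pairs (3.69-fold, 3.44 to 3.95) were counted. In the 40 kb before and after the upstream domain, trans-homolog enrichment with the downstream domain was 1.89 and 1.61, and cis enrichment was 1.31 and 1.31. Before and after the downstream domain, it was 2.69 and 1.01 in trans and 1.85 and 1.33 in cis. These averages do not place the fall at the boundaries. In 20 kb strips at 100 to 160 kb past the upstream centre, across the domain's end, cis maternal enrichment was 1.87, 1.87 and 2.23. Near the end of the downstream domain, it fell from 5.62 at 80 to 100 kb past the centre to 1.65 at 100 to 120 kb.

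At pair C, contacts were lower past the far end of the upstream domain than inside it. The cis domain of the upstream centre spanned 132 kb (48 kb in replicate 1 and 144 kb in replicate 2) and ended at chr3L:6748001-6752000, a boundary called in the same bin of the trans-homolog, paternal and maternal maps. Enrichment with the downstream domain was 5.27 in trans and 4.73 in cis inside it, against 0.658 and 1.17 in the 40 kb after it. In 20 kb strips at 20 to 100 kb past the upstream centre, trans-homolog enrichment was 7.69, 2.98, 1.72 and 2.97. Each strip was read against the 100 kb around the downstream centre. The fall thus began inside the upstream domain. On its other side, past a weak boundary of prominence 0.335, enrichment was still 4.98 in trans and 4.10 in cis. The downstream centre lay 23 kb before the boundary at chr3L:9352001-9356000, found on both homologs. Beyond that boundary enrichment was 2.69 in trans and 2.21 in cis. The cis domain before it reached back over 312 kb (316 kb in replicate 1 and 132 kb in replicate 2), and in the 40 kb before that domain enrichment was 0.933 in trans and 0.888 in cis. With replicates pooled, the domain of this centre spanned 132 kb in the maternal, 112 kb in the paternal and 108 kb in the trans-homolog map. The 312 kb extent was thus specific to the cis map of both homologs.

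At pair B, the upstream centre lay 19 kb inside a domain of 156 kb, next to a pair of boundaries at chr2L:6320001-6324000 and chr2L:6340001-6344000. The downstream centre lay in a small domain of 76 kb between chr2L:9416001-9420000 and chr2L:9492001-9496000. Between these domains enrichment was 7.88 in trans and 4.97 in cis, with 7.14 on the paternal homolog and 2.82 on the maternal homolog. It remained 6.42 in trans and 3.73 in cis in the 40 kb before the upstream domain, and was 1.40 and 0.882 in the 40 kb after it. With replicates pooled, the paternal map had no boundary called inside the downstream domain, against 2 in the maternal map. The stronger maternal one lay at chr2L:9448001-9452000 (prominence 0.768), and the weaker had a prominence of 0.309. The paternal score also dipped 24 kb before the centre bin (-0.438, against -0.472 in the maternal map), without a boundary call. The trans-homolog map had a boundary at chr2L:9444001-9448000 (prominence 1.38). An absent call is thus not an absent dip. In replicates 1 and 2, the nearest boundary before the downstream centre lay 53 and 41 kb away in the paternal map, against 25 and 21 kb in the maternal map.

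Distances from the centres to boundaries differed between the pairs. The distance to the nearest trans-homolog boundary had a median of 12 kb over the 6 centres (3 to 31 kb), where the medians over all scored bins were 16 kb on 2L and 12 kb on 3L. On 2L the 4 centres lay 3 to 19 kb from one, and on 3L the 2 centres lay 21 and 31 kb from one. These values are from pooled replicates. In replicates 1 and 2, the upstream centre of pair C lay 5 and 9 kb away and the downstream centre 3 and 5 kb. The difference between arms was therefore seen only with replicates pooled. The distance to the nearest cis boundary had a median of 25 kb (19 to 117 kb), where the median over all bins was 28 kb on both arms. In the cis map of both homologs, the centres of pair A were the farthest, at 65 kb upstream and 117 kb downstream. There, 87.9% and 98.6% of the bins of 2L were as near to a cis boundary. In the paternal map alone, a boundary lay 7 kb from the downstream centre of pair A (77 kb in replicate 1 and 3 kb in replicate 2). Those of pairs B and C lay at 19 to 27 kb. Trans-homolog boundaries were called more often than cis ones from fewer pairs, at 423 against 228 on 2L.

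**Figure D5:**
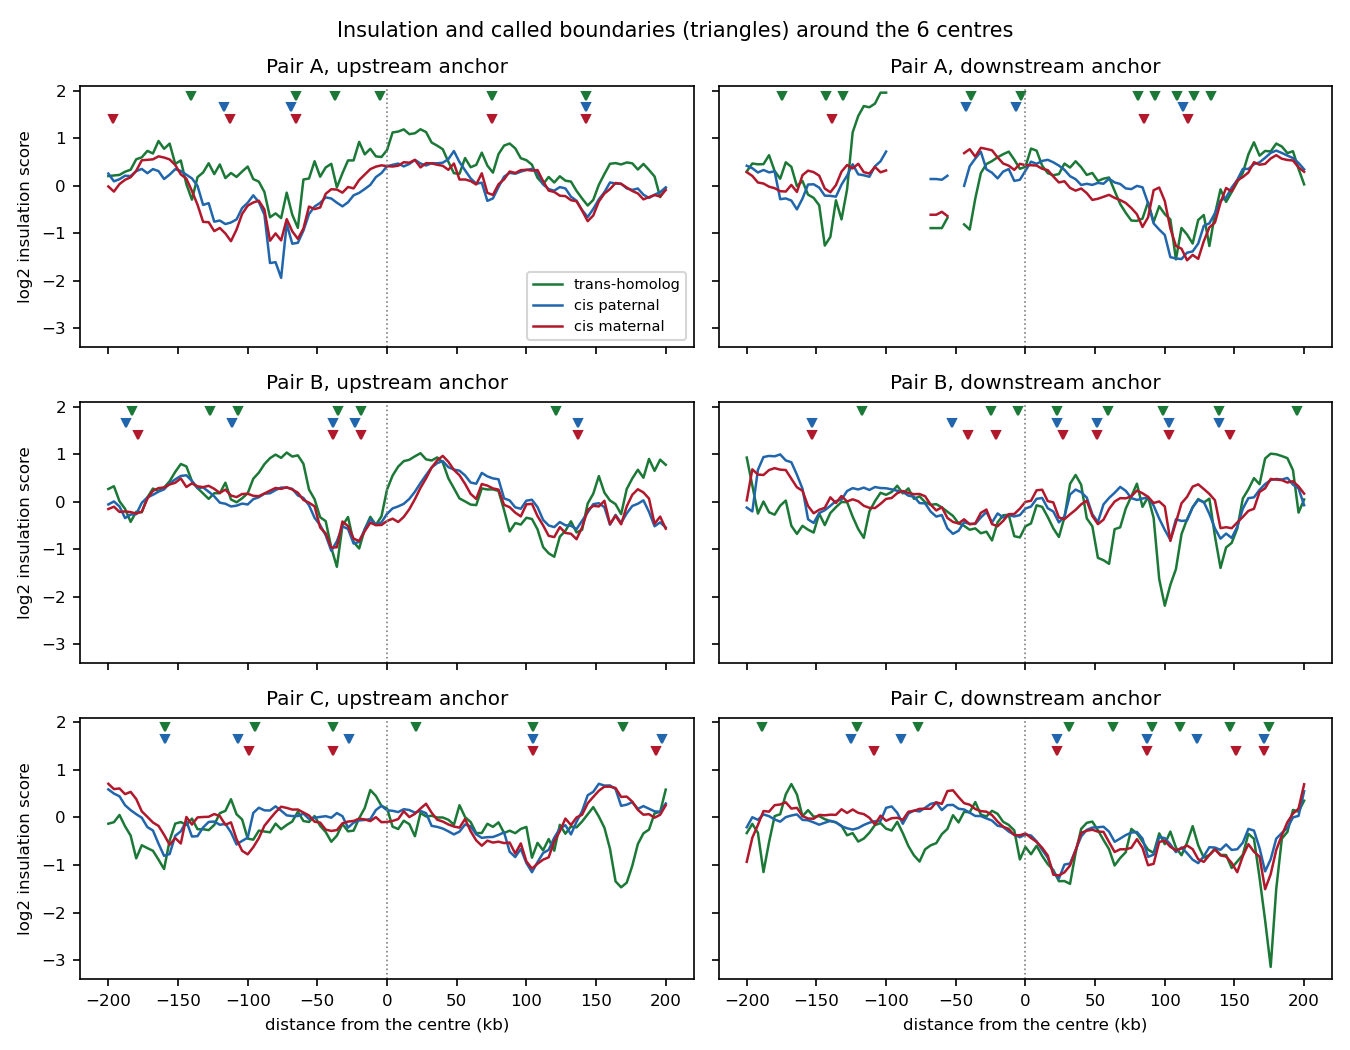
log2 insulation score by distance from each of the 6 peak centres in trans-homolog, cis paternal and cis maternal maps (4 kb bins, replicates pooled), with called boundaries as triangles; gaps are bins without enough visible neighbours. Around pair A the scores drop at -65 and 143 kb from the upstream centre in trans-homolog and cis maternal maps.

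Contacts within the anchors were near those of other 200 kb windows. At 3 to 100 kb, trans-homolog enrichment was 1.23 and 1.05 at the upstream and downstream anchors of pair A, 1.24 and 0.856 at those of pair B, and 1.02 and 0.793 at those of pair C (replicates pooled). Cis enrichment was 1.12 and 1.12, 1.10 and 1.05, and 1.01 and 0.919. The window medians were 1.01 to 1.04 in trans and 1.07 in cis. The downstream anchor of pair C was the lowest, but without correction of coverage it had 1.28 in trans and 1.49 in cis. With correction, in cis it had 0.92 ± 0.01 (SD, n = 2), and 399 of 411 other windows on 3L were at or above it.

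Local pairing of homologs was read at the same centres. The pairing score is the log2 mean corrected trans-homolog contact frequency in a square of 7 by 7 bins of 4 kb on the trans-homolog diagonal. It was -9.29 and -9.91 at the upstream and downstream centres of pair B, which exceeded 72.8% and 45.9% of the scored bins of 2L. At pair A it was -10.11 and -11.09, above 38.1% and 13.2% of bins. At pair C it was -11.13 and -10.21, above 12.1% and 37.4% of the bins of 3L. The arm medians were -9.82 on 2L and -9.94 on 3L. Of the 6 centres, 5 lay below the median of their arm with replicates pooled, 3 in replicate 1 and 4 in replicate 2. The replicates differed most in this score at the downstream centre of pair A, with -12.14 and -10.57.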

How the data were processed

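Hi-C pairs of 2 biological replicates of F1 embryos were analysed. Per the file headers, the authors aligned reads with bwa 0.7.15-r1140 to a diploid dm3 genome carrying the variants of both lines, parsed and deduplicated pairs with pairsamtools 0.0.1-dev, and split them with pairtools 0.2.0. The deposited columns used were homolog-resolved positions (base pairs), strands and the mapping quality score of each end, from 1 to 60. Only reads over a variant can be assigned to a homolog.

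Maps of 2 and 4 kb bins over the 5 large arms were corrected iteratively here (contacts of at least 3 kb, MADmax of 7, at least 10 nonzero entries per bin, pooled replicates) with Python 3.11.15, NumPy 2.4.6 and SciPy 1.17.1. Of the 2 kb bins, 81.8% were visible. Expected pairs used separations within 10 kb. Enrichments, the search for centres and boundary calls were tested on simulated pairs of arm 2L. Cis enrichment of 4 was returned as 3.93 and trans-homolog enrichment of 5 as 4.19. The simulated centre was found with an offset of 0 kb, and 11 of 11 boundaries were recovered. That centre was a uniform square, so the placing of the real centres, which moved between replicates, was not tested by it. Named loci were the anchors, centres, nearest boundaries and the 5 strongest distant windows per centre. The members and these choices were made with earlier results of these data known. With 1 condition and 2 replicates no test was run. Genes and sequences are not given, because no dm3 reference was used here. Alternatives varied correction, mapping quality, bin size, background, square size, the choice of centres, and window and prominence of boundaries.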

Additional observations from a re-analysis of the deposited data

How the results depend on the processing

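No paired analysis was possible because both replicates belong to 1 group. Anchor-square enrichment stayed far above 1 under the alternatives run. Its median over the 3 pairs, 5.15 in trans and 3.56 in cis, was 6.03 and 4.12 without iterative correction. In trans it was 4.24 with a background within 2 Mb of the anchors and 5.70 with the window median as background. With 1 replicate left out it was 4.74 to 5.23 in trans and 3.19 to 3.92 in cis. Values at the 10 kb centres, with 0 to 24 pairs behind each, moved widely. The cis median of 27.6 was 37.9 without correction, 38.2 at a mapping quality of at least 30, 23.9 with 4 kb bins (12 kb square), 22.6 with the background within 2 Mb, 17.0, 40.2 and 14.5 in squares of 20, 6 and 40 kb (the last chosen after the data were seen), 10.2 with centres of the other replicate, 7.14 with centres of the other homolog, and 28.1 to 32.4 with 1 replicate left out. The trans-homolog median of 9.88 was 34.0 with 4 kb bins, 54.5 in 6 kb squares, and 0 to 19.8 with 1 replicate left out. Local contacts of single anchors moved most without correction of coverage, where the downstream anchor of pair C had 1.28 in trans and 1.49 in cis in place of 0.793 and 0.92. Over the 6 anchors, the trans-homolog median of 1.03 was 1.12 at a mapping quality of at least 30 and 0.985 to 1.08 with 1 replicate left out. The cis median of 1.08 was 1.12 at that mapping quality, 0.97 at separations of 10 to 100 kb, and 1.05 to 1.07 with 1 replicate left out. The median pairing score of -10.16 was -11.40 with contacts of at least 10 kb and -10.61 to -9.85 with 1 replicate left out, and a W of 1 gave no score at 1 centre. Distances to boundaries depended on the caller. The trans-homolog median of 12 kb was 6 kb with a window of 5 bins, 27 kb at a prominence of 0.5, 22 kb with 2 kb bins, and 6 to 7 kb with 1 replicate left out. The cis median of 25 kb was 18, 77 and 43 kb in the same settings, and 23 to 31 kb with 1 replicate left out. The cause of these shifts was not tested. Of all summary values under the alternatives, 37 moved by less than 1 SD between replicates and 31 by 1 SD or more. Of the values of single pairs and anchors, 188 moved by less than 1 SD and 111 by 1 SD or more. For enrichments and ratios of single pairs and anchors, the main value is the mean of the 2 replicates. Leaving out 1 replicate then always moves the value by less than 1 SD. Those cases are among the 188 and do not measure stability. Trans-homolog and cis enrichment of the anchor squares did not fall below 2.88. Low trans-homolog counts limit the precision.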
